A study of Saccharomyces cerevisiae with 2 samples.

Results

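The 10 genes described here encode the enzymes that methylate the lysines replaced in the histone H3 K4,36,79R mutant of budding yeast, and the partners of the first of them. They are SET1 and the other 7 genes of its complex (BRE2, SWD1, SWD2, SWD3, SPP1, SDC1 and SHG1), together with SET2 and DOT1. They were chosen by name from the platform's gene annotation. The annotation gave each of the 10 exactly 1 probe set with that single gene symbol, out of 5656 genes that have such a probe set, and no member had a second or shared probe set. All 10 matched the RefSeq gene table by gene identifier, as SET1 (YHR119W), BRE2 (YLR015W), SWD1 (YAR003W), SWD2 (YKL018W), SWD3 (YBR175W), SPP1 (YPL138C), SDC1 (YDR469W), SHG1 (YBR258C), SET2 (YJL168C) and DOT1 (YDR440W). None of the 10 overlaps another gene of that table.

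Both samples belong to 1 group. They are replicate cultures 1 and 2 of the mutant strain, in which H3 carries arginine in place of lysine at positions 4, 36 and 79. The cells grew in selective galactose medium, in which the wild-type H3 gene was active too, and were harvested 18 hours after a move to selective glucose medium, which repressed the wild-type gene. How much wild-type H3 protein was left at 18 hours was not measured here. The series asks which genes the mutant regulates over 0, 6, 9, 12 and 18 hours. Wild-type and earlier samples were not analysed here, so the values give levels in the mutant and the spread between its 2 cultures, with no test and no effect of the mutation.

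Methyl groups on H3 mark transcribed chromatin in yeast. Set1 methylates lysine 4 near the start of active genes and works only as part of a complex named COMPASS. Set2 travels with elongating RNA polymerase II and methylates lysine 36 over gene bodies, and Dot1 methylates lysine 79 and limits the spread of silent chromatin. Ubiquitin on histone H2B is needed for much of the methylation by Set1 and Dot1. In this mutant each of the 3 enzymes lacks its target lysine on the only H3 gene that stays active in glucose.

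A value is the deposited MAS5 signal, in arbitrary units, from 1 Affymetrix array per culture. Over all 9335 probe sets the median signal was 25.5 on replicate 1 and 25.7 on replicate 2. Over the 5656 genes the log2 difference, replicate 2 minus replicate 1, had a median of 0.03 and an SD of 0.25. The spread widened as signals became dimmer, from an SD of 0.13 for genes with signals from 256 to 0.28 for genes from 8 to 16. The 3′ to 5′ signal ratio of the ACT1 control probe sets, a measure of RNA integrity, was 1.61 and 1.57. Probe sets differ in affinity, so the signal of one gene is not set against that of another. In a bulk culture, fewer cells that make a transcript and less of it in each cell cannot be told apart.

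All 3 methyltransferase genes gave a higher signal on replicate 2 than on replicate 1, by 1.16- to 1.24-fold. Over all genes 56.4% were higher on replicate 2. SET1, for the lysine 4 enzyme, gave 47.2 on replicate 1 and 54.7 on replicate 2, with a mean of 50.9 ± 5.29 (SD, n = 2). Its log2 difference of 0.21 compares with an SD of 0.17 among the 1378 genes of similar signal, those whose mean log2 signal lay within 0.5 of its own. SET1 was thus a little further apart between the cultures than 1 SD of equally bright genes, and inside their 5th to 95th percentile range of -0.25 to 0.27.

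SET2, for the lysine 36 enzyme, gave 5.35 on replicate 1 and 6.25 on replicate 2, with a mean of 5.80 ± 0.641 (SD, n = 2). That is 2.88 and 3.70 times the background of probe sets for foreign sequences on the same arrays. The log2 difference of SET2 was 0.23, against an SD of 0.29 among 281 genes of similar signal. The SET2 probe set therefore sat in a range where replicate arrays differ widely, and its difference was smaller than 1 SD of that range.

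DOT1, for the lysine 79 enzyme, gave 10.3 on replicate 1 and 12.8 on replicate 2, with a mean of 11.5 ± 1.76 (SD, n = 2). Dot1 is the one enzyme of the 3 without a SET domain. Its gene was 1.24-fold higher on replicate 2, a log2 difference of 0.31, against an SD of 0.28 among 646 genes of similar signal and a 5th to 95th percentile range of -0.37 to 0.40. DOT1 lay inside that range and slightly beyond 1 SD.

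**Figure D1:**
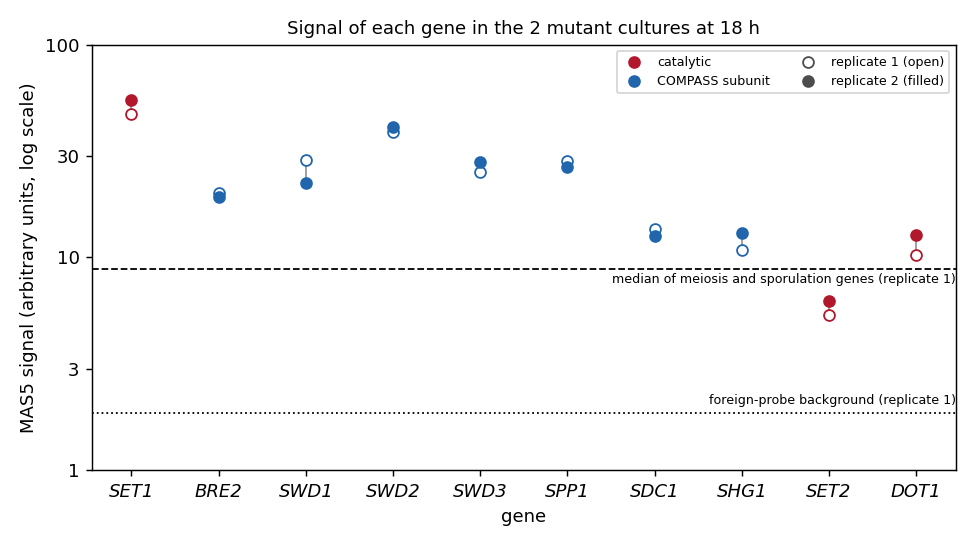
MAS5 signal (log axis, arbitrary units) of the 10 genes on replicate 1 (open circles) and replicate 2 (filled circles), red for the 3 methyltransferase genes and blue for the other 7 COMPASS genes, with lines at the foreign-probe background of 1.86 and the meiosis and sporulation median of 8.83 on replicate 1. SET2 is the gene below the upper line, all 10 lie above the lower one, and heights of different genes are not comparable.

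The other 7 COMPASS genes split between the arrays, 3 higher and 4 lower on replicate 2. Swd1 and Swd3, WD-repeat proteins, form the core that holds Set1 and keeps it stable. SWD1 gave 28.6 on replicate 1 and 22.3 on replicate 2, with a mean of 25.5 ± 4.47 (SD, n = 2). SWD1 was the member furthest apart between the cultures, 1.28-fold lower on replicate 2. Its log2 difference of -0.36 lay outside the 5th to 95th percentile range of -0.30 to 0.32 among 1379 genes of similar signal. SWD1 was the 1 member of the 10 outside its range. By definition such a range leaves out 5% of genes at each end, so 1 of 10 is near the share of all genes. SWD3 gave 25.2 and 28.0, with a mean of 26.6 ± 1.99 (SD, n = 2). Its log2 difference of 0.15 had the opposite sign to that of SWD1 and was within the SD of 0.20 of 1402 genes of similar signal.

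Bre2 and Sdc1 bind each other within the complex and take part in di- and trimethylation of lysine 4. BRE2 gave 20.2 on replicate 1 and 19.2 on replicate 2, with a mean of 19.7 ± 0.712 (SD, n = 2). SDC1 gave 13.6 and 12.6, with a mean of 13.1 ± 0.721 (SD, n = 2). Both were slightly lower on replicate 2, with log2 differences of -0.07 and -0.11, each under the SD of genes of similar signal (0.21 and 0.26).

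Spp1 has a PHD finger that binds methylated lysine 4 and is needed for full trimethylation. SPP1 gave 28.5 on replicate 1 and 26.6 on replicate 2, with a mean of 27.6 ± 1.34 (SD, n = 2) and a log2 difference of -0.10. SHG1, for the small subunit whose part in the complex is the least defined, gave 10.9 and 13.0, with a mean of 11.9 ± 1.502 (SD, n = 2). SHG1 was 1.196-fold higher on replicate 2, a log2 difference of 0.26, against an SD of 0.27 among 670 genes of similar signal.

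Swd2 is the essential subunit, shared with the cleavage and polyadenylation factor. SWD2 gave 39.1 on replicate 1 and 41.0 on replicate 2, with a mean of 40.03 ± 1.38 (SD, n = 2). It was the closest of the 10 between the cultures, 1.05-fold apart, with a log2 difference of 0.07.

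**Figure D2:**
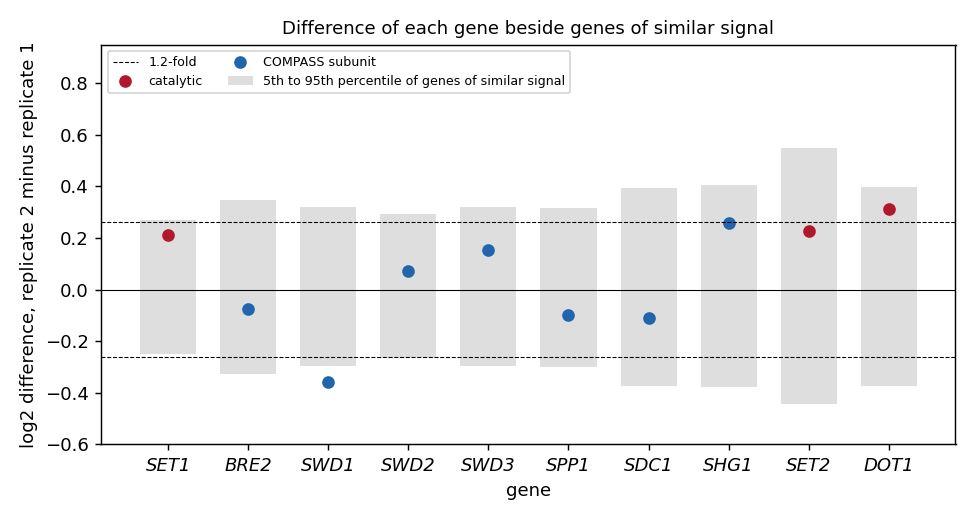
Log2 difference, replicate 2 minus replicate 1, of each gene (points, red for methyltransferase genes and blue for other COMPASS genes), with bars from the 5th to the 95th percentile of the differences of genes of similar signal and dashed lines at 1.2-fold. SWD1 lies below its bar at -0.36, and the other 9 genes lie within theirs. By definition each bar leaves out 5% of the genes of similar signal at each end.

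Across the 10 genes, 2 were more than 1.2-fold apart between the cultures, DOT1 higher and SWD1 lower on replicate 2. Over all 5656 genes 15.4% were, 8.84% higher and 6.54% lower, so the share of members was near that of all genes. None of the 10 was more than 1.5-fold apart, where 2.16% of all genes were, 1.04% higher and 1.11% lower. The differences of 7 of the 10 were smaller than the SD of genes of similar signal, and those of SET1, SWD1 and DOT1 were larger. The share of all genes within such an SD was not computed, so this count does not set the members apart. The median log2 difference was 0.11 over the 10 members and 0.03 over all genes, with 6 members and 56.4% of all genes higher on replicate 2.

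The methyltransferase genes and their partners therefore did not lie to one side. The 3 methyltransferase genes had log2 differences from 0.21 to 0.31. The 7 other COMPASS genes ranged from -0.36 to 0.26, with a median of -0.07. Within the whole complex, SET1 included, 4 genes were higher and 4 lower on replicate 2, and the SD of their log2 differences was 0.21. The SD of 0.25 over all genes includes very dim ones, with 0.74 for signals from 1 to 4. In the ranges where the complex lies it was 0.28 (8 to 16), 0.21 (16 to 32) and 0.17 (32 to 64). The median absolute log2 difference was 0.13 in the complex, 0.18 over the 10 members and 0.11 over all genes. The median signal of the 10 members was 22.6, and 8 of the 10 were below the array's median gene on each array, at 39.03 and 39.7. The members were thus measured in the dimmer range of the arrays, where the spread between cultures is wider.

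**Figure D3:**
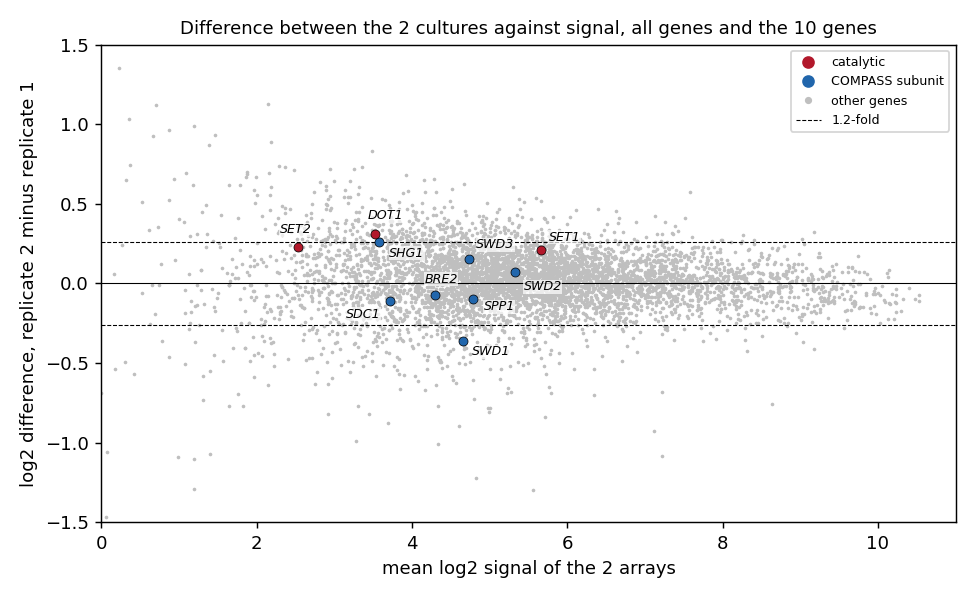
Log2 difference, replicate 2 minus replicate 1, against the mean log2 signal of both arrays, for the genes compared (grey; 43 lie outside the plotted range) and the 10 genes (red for methyltransferase genes, blue for other COMPASS genes), with dashed lines at 1.2-fold. The grey cloud widens toward low signals, where DOT1, SHG1, SDC1 and SET2 lie, and SWD1 and DOT1 are the members past the dashed lines.

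Of the settings compared, 4 could in principle change the sign of a gene's difference: median centring, quantile normalization, loess and subtraction of a local median. Each of the 10 genes kept its sign in these 4. Median centring, quantile normalization and loess lowered every member's difference only slightly. SWD2, the closest gene, went from 0.07 to between 0.04 and 0.05, so kept signs in those settings say little. SWD1 ran from -0.39 after loess to -0.22 with a pseudocount of 16, and DOT1 from 0.13 with that pseudocount to 0.31 as deposited. SET2, with the dimmest of the 10 probe sets, came down to 0.06 with the pseudocount. The local median was that of the 50 probe sets with the nearest probe set numbers, which takes out a difference shared by such neighbours. It was -0.06 around SWD1, 0.08 around SET1 and 0.15 around SDC1, and SWD1 stood at -0.30 and SET1 at 0.14 after subtraction. SDC1 moved furthest, from -0.11 to -0.26, and came close to 1.2-fold without passing it.

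**Figure D4:**
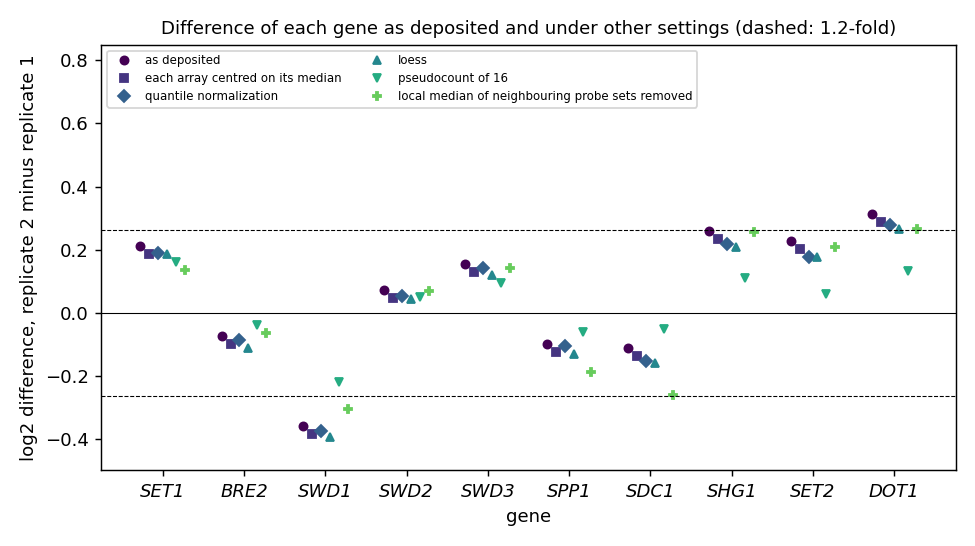
Log2 difference, replicate 2 minus replicate 1, of each gene (symbols), with dashed lines at 1.2-fold. Values are as deposited, with a pseudocount of 16, and after median centring, quantile normalization, loess or subtraction of the local median. SWD1 stays between -0.39 and -0.22, and only SWD1 and DOT1 pass a dashed line.

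The background set by foreign probe sets was passed by all 10 members on both arrays. It was 1.86 on replicate 1 and 1.69 on replicate 2. It was also passed by 98.7% of the 5656 genes, so passing it says little about expression. A higher bar was set with 18 genes of meiosis and sporulation, a programme that growing cells do not run, whose median was 8.83 on replicate 1 and 8.78 on replicate 2. That list had 3 genes past 1.2-fold, IME1 at -0.44, SPS1 at 0.29 and DIT2 at 0.49, where 15.4% of all genes were. DIT2 gave only 2.15 and 3.02, and 54.9% of genes with signals from 1 to 4 were past 1.2-fold. The median log2 difference of the list was -0.04. The list's median signal was exceeded by 9 of the 10 members and by 90.2% of all genes. Mean signals in the list ran from 1.67 to 39.9, and those of the members from 5.80 to 50.9. The 2 ranges overlap widely, so passing the list's median does not show that a member was expressed. SET2 was the member below that level, at 5.35 and 6.25. Probe sets differ in affinity, so this places the SET2 probe set among dim ones and does not measure how little SET2 transcript there was.

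The genes that act with the methyltransferases were read on the same arrays. All 10 listed genes of H2B ubiquitination and the Paf1 complex, which is needed for that mark, were measured, and 3 were past 1.2-fold, where 15.4% of all genes were. PAF1, a subunit of that complex, gave 43.1 on replicate 1 and 28.5 on replicate 2, a log2 difference of -0.60. UBP8, which removes ubiquitin from H2B, gave 20.2 and 13.5, a difference of -0.58. RTF1, the Paf1 complex subunit most directly tied to H2B ubiquitination, gave 28.4 and 34.4, a difference of 0.28. PAF1 and RTF1 were thus on opposite sides although their products share a complex, and the list's median was 0.05.

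The 4 listed genes of H3 demethylases, which act on lysines 4 and 36, were all higher on replicate 2, as were 56.4% of all genes. Their median log2 difference was 0.19. JHD1, for a lysine 36 demethylase, was the 1 of the 4 past 1.2-fold, where 15.4% of all genes were. It gave 12.1 on replicate 1 and 14.7 on replicate 2. JHD2, for the lysine 4 demethylase, gave 12.7 and 14.1. Of the 10 other genes with a SET domain, 3 were past 1.2-fold (15.4% over all genes), and these were higher on replicate 2 (8.84% over all genes). They were SET6, with 1.83 and 2.81 and not above background on both arrays, EFM1, a methyltransferase for a translation elongation factor, with 26.1 and 34.2, and RKM2, for a ribosomal protein methyltransferase, with 12.5 and 15.4. The list's median difference was 0.14.

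Among 11 genes whose products read lysine 4 methylation or belong to complexes that do, 2 were past 1.2-fold, beside 15.4% over all genes. YNG2, an ING-family subunit of the NuA4 acetyltransferase, gave 12.0 on replicate 1 and 19.1 on replicate 2, a log2 difference of 0.68. HOS4, of the Set3 deacetylase complex, gave 15.8 and 12.9, a difference of -0.29. The other 9 were closer, and the list's median was -0.12.

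Among 8 genes for readers of lysine 36 methylation and their complexes, 4 were past 1.2-fold, beside 15.4% over all genes. ISW1, a chromatin remodeler, gave 28.5 on replicate 1 and 18.7 on replicate 2, a log2 difference of -0.61. RCO1, of the Rpd3S deacetylase, gave 26.5 and 20.0, and IOC2, a partner of Isw1, gave 55.8 and 45.1. All of these were lower on replicate 2, where 6.54% of all genes were lower by more than 1.2-fold. UME1, another Rpd3 partner, was higher with 9.59 and 11.9, beside 8.84% of all genes. Of genes with signals from 8 to 16, as for UME1, 29.1% were past 1.2-fold. EAF3, whose chromodomain binds methylated lysine 36, gave 161.4 and 167.3. The list's median was -0.02.

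Sir3, a silencing protein, binds H3 around lysine 79 less well when that lysine is methylated. None of the 4 SIR genes was past 1.2-fold, where 15.4% of all genes were, with differences from -0.19 for SIR1 to 0.16 for SIR4. None of the 7 genes for Swd2 and its partners in cleavage and polyadenylation was either, with a range from -0.09 for PTA1 to 0.17 for SYC1. In lists this small, a count of 0 says little beside that share. None of these list differences has a test, because there is 1 array for each culture.

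**Figure D5:**
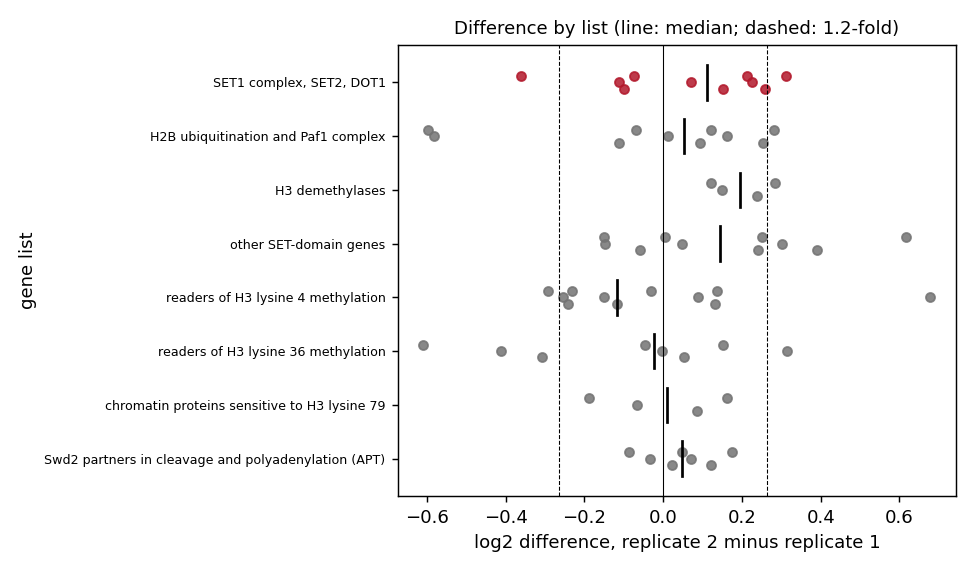
Log2 difference, replicate 2 minus replicate 1, of the 10 genes (red) and of each list of related genes (grey), with a line at each list's median and dashed lines at 1.2-fold. The medians lie between -0.12 and 0.19, and YNG2 at 0.68 and ISW1 at -0.61 are the points furthest out on each side.

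The target of the enzymes was read by 3 probe sets that the annotation assigns to both H3 genes, HHT1 and HHT2, and that cannot tell wild-type from mutant H3. The brightest gave 1360 on replicate 1 and 1261 on replicate 2. Another gave 110.3 and 116.2, and the last, at 1.42 and 1.25, was not above the foreign-probe background. The brighter 2 probe sets were on opposite sides, with log2 differences of -0.11 and 0.08.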

How the data were processed

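Total RNA (about 20 µg, from cells at an OD600 of 0.5 to 0.7, per the labels' protocols) was hybridised to 1 Affymetrix array per sample. The authors deposited linear intensity values, 1 signal per probe set, made with MAS5 per the submitters' processing notes. Nothing used here states the MAS5 version or its scaling, and detection calls were not used. The labels' series text calls the replicates separate cultures.

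Signals were used as deposited, on the log2 scale for differences. For genes with several probe sets the brightest was taken. Genes were named from the platform annotation, which can be old. The background signal came from 13 probe sets with no yeast target (4 murine, 9 antisense bacterial), as their 95th percentile. With 1 array for each culture no test was possible, and a threshold of 1.2-fold served as description. The number of arrays limits precision. Members and lists were chosen with earlier results of these data known. The rule for named genes took all members and, in each list, every gene past 1.2-fold where there were 5 or fewer. JHD2, EAF3 and the ends of the ranges of the SIR and Swd2 lists were named outside it, after their values were seen. Scaling and counting steps were tested on simulated data with less noise than these arrays show. The pseudocount and local-median settings were not part of that test. Python 3.11.15, pandas 2.3.3 and statsmodels 0.14.6 (loess) were used.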

Additional observations from a re-analysis of the deposited data

How the results depend on the processing

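With either culture alone, the median signal of the 10 members, 22.6, was 20.7 (without replicate 1) to 22.7 (without replicate 2). The count of members past 1.2-fold, 2, was 0 with a pseudocount of 16 (3.16% of all genes), 0 with a threshold of 1.5-fold (2.16%), and 0 among the 2 members (SET1 and SWD2) whose mean signal reached the median of 35.2 over single-gene probe sets. That filter left out SWD1 and DOT1, and 7.43% of the genes it kept were past 1.2-fold. So few genes pass in these settings that 0 is near the share of all genes. The count was 2 after median centring, quantile normalization and loess, where 14.8 to 15.0% of all genes passed. It was also 2 after subtraction of the local median, for which the share of all genes was not computed. The median difference over members stayed between 0.06 and 0.14. Each member has 1 probe set, so averaging probe sets changed nothing. All 10 members were above background with the highest foreign probe set as the threshold, as were 98.4% of all genes, so this too says little about expression. Signals limit what can be read: 4 of the 10 members lie under 16, where 1.2-fold was passed by 29.1% of genes from 8 to 16 and by 36.03% from 4 to 8.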
